A study of Mus musculus with 10 samples.

Results

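The 10 mRNAs described here are encoded by mouse mitochondrial DNA, and they were followed through an immunoprecipitation of the RNA-binding proteins Musashi1 and Musashi2 from pituitary. They are mt-Co1, mt-Co2 and mt-Co3 of cytochrome c oxidase, mt-Atp6 of ATP synthase, mt-Cytb of the cytochrome bc1 complex, and mt-Nd1, mt-Nd2, mt-Nd4, mt-Nd5 and mt-Nd6 of NADH dehydrogenase. They were chosen by name, as the rows whose Ensembl gene ID carries one of these symbols in the mouse GENCODE annotation, and all 10 were found among 55416 genes. The rule itself uses names and no measured value, although earlier results of these data were known when the set was chosen.

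The study asked which pituitary RNAs come down with Musashi. RNA was sequenced from 5 precipitates made with Musashi1 and Musashi2 antibodies pooled (Musashi IP) and from 5 control precipitates made with rabbit IgG, each pair from 1 lysate that was divided equally. The pituitaries came from control mice of the sighted FVB strain (FVB.129P2‐Pde6b+Tyrc‐ch/Ant), 8 to 10 weeks old, with 6 glands in a lysate. Lysates 2, 5 and 6 were female and lysates 3 and 7 male. Because the 2 antibodies were pooled, RNA of Musashi1 and of Musashi2 cannot be told apart. Each lysate was whole gland, so a level behind these counts does not tell fewer cells of a type from less RNA per cell.

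Mitochondrial DNA carries genes for the catalytic core of the respiratory chain, its ribosomal RNAs and its transfer RNAs. Both strands are transcribed as long precursors that are cut into single RNAs, mostly at the transfer RNAs between them. The resulting mRNAs are translated by ribosomes inside the organelle, and nearly all other subunits of the same complexes are encoded in the nucleus and imported as proteins. Musashi1 and Musashi2 bind short sequence motifs built around UAG and act on the translation of their target mRNAs, many of them in stem and progenitor cells.

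Musashi IP libraries held 8742084 to 13019326 counts and IgG libraries 6673425 to 9354745, so that 1 count equalled 0.0768 to 0.114 CPM (counts scaled by library size) in Musashi IP and 0.107 to 0.15 CPM in IgG before the scaling between libraries that levels below carry. Hormone mRNAs of the pituitary held 1.51 to 3.75% of counts in Musashi IP and 1.44 to 4.9% in IgG, with Lhb at 0 in every library. Why Lhb had 0 counts was not tested, and the program that counted reads is not given in the sources used here. Of 6 hormone mRNAs tested 1 rose, Fshb (log2 2.28), and 0 fell (median -0.02). The IgG library of lysate 2 stood apart from the other IgG libraries for mitochondrial RNA. In it the 10 mRNAs held 0.225% of counts and the mitochondrial ribosomal RNAs 2.54%, against at most 0.101% and 0.723% in the other 4 IgG libraries. Nuclear and red cell RNA also differed between the antibodies. Malat1, a nuclear noncoding RNA, took 3.41 ± 0.988% of counts in Musashi IP and 4.90 ± 0.521% in IgG (SD, n = 5 each). Of 4 nuclear-retained noncoding RNAs 2 fell, Malat1 (log2 -0.39) and Xist (-0.81), and 0 rose (median -0.32). The red cell markers, of which 4 of 5 were tested and 3 fell (median log2 -0.65), summed to 271 to 688 CPM in Musashi IP and 461 to 1248 CPM in IgG. Of all genes tested, 18.5% rose and 8.4% fell (adjusted p under 0.05, edgeR). The part of the library shares above in the results on mitochondrial mRNAs was not tested.

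Not all of the 10 mRNAs could be measured. Only 7 passed the filter on low counts, and mt-Co2, mt-Co3 and mt-Atp6 were close to absent. mt-Co2 had 1, 1, 0, 3 and 2 counts in Musashi IP of lysates 2, 3, 5, 6 and 7, against 6, 1, 1, 2 and 1 counts in IgG. mt-Co3, the third core subunit of cytochrome c oxidase, had 1, 4, 2, 5 and 6 counts in Musashi IP and 6, 4, 1, 1 and 5 counts in IgG. mt-Atp6, part of the proton channel of ATP synthase, had 4 counts in Musashi IP 3, 1 count in IgG 7 and 0 in the other 8 libraries. No fold change is given for them, since most libraries lay at or near the count of 3 that a value of 0 allows (0.23 to 0.343 CPM in Musashi IP, 0.321 to 0.45 CPM in IgG). Over all 10 libraries they came to 18, 35 and 5 counts, or 26.3, 44.6 and 7.34 counts per kb, against 57869 counts per kb for mt-Co1, the neighbouring mRNA gene of mt-Co2. They lie on the plus strand at chrM:7013-7696 (mt-Co2, ENSMUSG00000064354), chrM:7927-8607 (mt-Atp6, ENSMUSG00000064357) and chrM:8607-9390 (mt-Co3, ENSMUSG00000064358), in GENCODE M21 on GRCm38. Of the 3 mitochondrial mRNAs not among the 10, mt-Nd3 had 4 counts in all and mt-Nd4l and mt-Atp8 had 0.

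The low mRNAs of the 10 are those with a near-identical copy of nearly their whole length in the nuclear genome. In the same annotation, 7 pseudogenes at chr1:24611535-24616197, a block of 4663 bases, repeat the mitochondrial genome from the 3′ part of mt-Co1 to the 5′ part of mt-Nd4. The copies of mt-Co2 (Gm28661, 681 of 684 bases aligned), mt-Atp6 (Gm10925, 678 of 681) and mt-Co3 (Gm28437, 783 of 784) matched the mitochondrial gene with 0 mismatches over the aligned bases, and so did that of mt-Nd4l (Gm10222). The copy of mt-Nd3, Gm28438, was 99.7% identical. mt-Nd4 was covered over 63.6% of its length (Gm28439, 876 of 1378 bases) and mt-Co1 over 31.3% (Gm29216, 483 of 1545 bases, 99.8% identical), and both were well above the filter, with at least 212 counts (mt-Nd4) and 3106 counts (mt-Co1) in every library. mt-Atp8 (chrM:7766-7969), at 0 counts, had no annotated copy with at least 100 aligned bases. Its end overlaps the start of mt-Atp6 at chrM:7927, which Gm10925 matched. A second group of copies on chromosome 2 was less alike, with Gm13340 for mt-Co1 at 97.6%, Gm13341 for mt-Co2 at 95.9% and Gm13339 for mt-Nd2 at 96.7% identity, and Gm4076 on chromosome 13 matched mt-Nd5 at 95.2%. No annotated copy matched mt-Nd1, mt-Cytb or mt-Nd6. A stretch of 30 bases from mt-Co2 (transcript bases 472 to 501) shows both kinds of copy, with capitals for the bases at which the chromosome 2 copy differs:
mt-Co2: gaCgtCctccactcatgagcAGtcccctcC
Gm28661: gaCgtCctccactcatgagcAGtcccctcC
Gm13341: gaTgtTctccactcatgagcCAtcccctcA
The mitochondrial gene and the chromosome 1 copy are letter for letter the same here, and the chromosome 2 copy differs at 5 bases. In mt-Co1 (bases 1151 to 1180), which lies within the copied 3′ part, the pattern was the same with 2 differing bases:
mt-Co1: gagcagtgtttgctatcatagcaggattTG
Gm29216: gagcagtgtttgctatcatagcaggattTG
Gm13340: gagcagtgtttgctatcatagcaggattCA
The 11 copies themselves had 0 to 53 counts in any library, the most for Gm28437. How reads that map to several places were treated is not given in the sources used here, and the part of the copies in the low counts was not tested. The levels of mt-Nd4 and mt-Co1, which have such a copy over part of their length, are uncertain while the treatment of such reads is unknown.

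**Figure D1:**
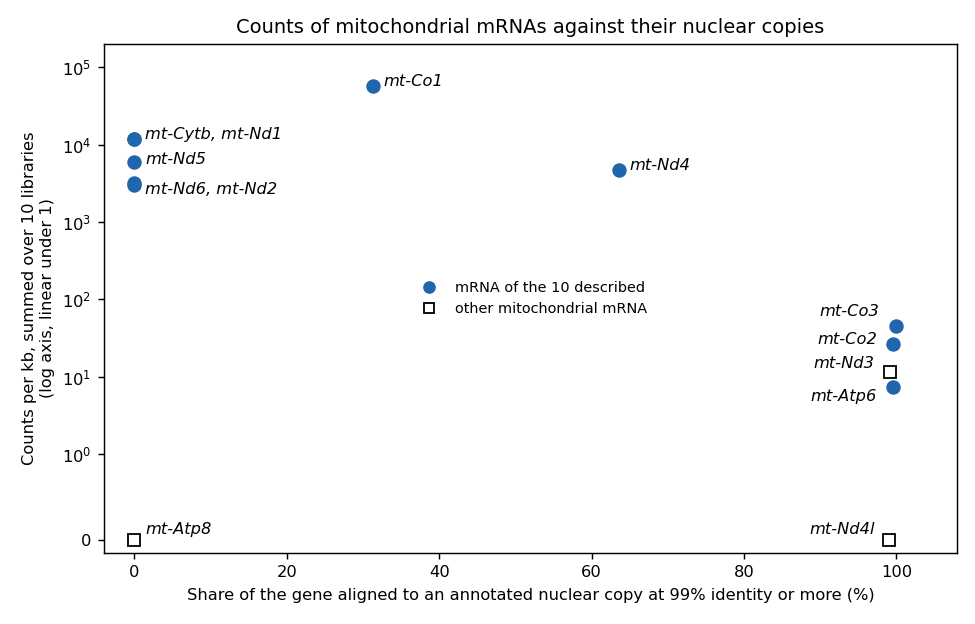
Counts per kb of gene, summed over the 10 libraries (log axis, linear under 1), against the share of the gene that aligns to an annotated nuclear copy at 99% identity or more. Alignments under 100 bases are left out. Filled circles are the 10 mRNAs and open squares the other mitochondrial mRNAs. The genes near 100% lie at 44.6 counts per kb or less, and mt-Co1, mt-Nd4 and the genes at 0%, other than mt-Atp8, lie at 2986 or more.

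Of the 7 mRNAs tested, 6 rose in Musashi IP over IgG and 0 fell. The background in this comparison was 18.5% of 20550 genes higher and 8.4% lower (edgeR's quasi-likelihood test with the lysate as a block, Benjamini-Hochberg adjusted p under 0.05). The 7 log2 fold changes ran from 0.55 to 1.25 with a median of 0.90, beside a median of -0.07 over all genes tested. Of the 7, 6 were higher in each of the 5 lysates, as were 22.4% of all genes tested. The Musashi IP and IgG values overlapped for all 7, while 9.7% of all genes had every Musashi IP library above every IgG library. All 6 calls were lost when the lysate was left out of the model, and 3 were lost without lysate 3 and 3 without lysate 7. Over all genes 3804 were higher in the main fit, 2407 without the block, 3028 without lysate 3 and 2288 without lysate 7. Without lysate 2, all 7 passed, at log2 0.77 to 1.44, with 4651 of 20543 genes higher in all. With offsets for length and GC content all 7 passed too, with 3260 genes higher in all. mt-Nd6, mt-Nd2 and mt-Nd1 then stood at 1.62, 1.40 and 0.97. The limits of the design are those of 5 lysates, and p-values measure how the difference between the antibodies varies from lysate to lysate.

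mt-Co1, the catalytic core of cytochrome c oxidase (complex IV), was the most abundant. It had 1608, 871, 851, 1832 and 1130 CPM in Musashi IP of lysates 2, 3, 5, 6 and 7, against 1417, 419, 520, 433 and 618 CPM in IgG of the same lysates. IgG 2 lay above 3 of the Musashi IP libraries, so the groups overlapped. mt-Co1 rose 1.96-fold (log2 0.97 ± 0.23, mean ± SE, n = 5 lysates, adjusted p = 0.016, edgeR), with the largest difference in lysate 6 (log2 2.08) and the smallest in lysate 2 (0.18). Its call was lost without lysate 5 (adjusted p = 0.0536, edgeR). mt-Co1 (ENSMUSG00000064351) spans chrM:5328-6872 on the plus strand.

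mt-Cytb encodes cytochrome b, the subunit of the cytochrome bc1 complex (complex III) that mitochondrial DNA supplies. Its levels were 316, 151, 105, 186 and 155 CPM in Musashi IP and 279, 66.9, 88.5, 68.7 and 90.7 CPM in IgG of lysates 2, 3, 5, 6 and 7. Lysate 2 was highest with either antibody. Only Musashi IP 2 lay above IgG 2, so the groups overlapped. mt-Cytb rose 1.69-fold (log2 0.76 ± 0.19, adjusted p = 0.0201, edgeR), and lost its call without lysate 3 (0.0656) or lysate 7 (0.063). It lies at chrM:14145-15288 on the plus strand (ENSMUSG00000064370).

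The 5 mRNAs of complex I encode core subunits of its membrane arm, through which protons are pumped. mt-Nd4 had the largest log2 fold change of the 7 mRNAs tested. It stood at 150, 87.6, 52.8, 95.7 and 92.1 CPM in Musashi IP of lysates 2, 3, 5, 6 and 7, against 91.5, 30.3, 37.0, 24.6 and 31.6 CPM in IgG. Musashi IP 3 and Musashi IP 5 lay below IgG 2, so the groups overlapped. It rose 2.37-fold (log2 1.25 ± 0.21, adjusted p = 0.00524, edgeR), by log2 0.51 in lysate 5 to 1.95 in lysate 6. Among the 14 alternatives tried its value stayed between 1.07 and 1.68, and leaving out the lysate block alone ended its call (adjusted p = 0.0562, edgeR). mt-Nd4 (ENSMUSG00000064363) lies at chrM:10167-11544 on the plus strand, and the 502 bases outside its nuclear copy are the 3′ part.

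mt-Nd6 is the mRNA transcribed from the opposite strand to all the others (ENSMUSG00000064368, chrM:13552-14070, minus strand). It had 38.7, 27.9, 15.4, 19.4 and 18.6 CPM in Musashi IP of lysates 2, 3, 5, 6 and 7, against 22.1, 8.76, 10.5, 9.98 and 12.8 CPM in IgG. Musashi IP 2 and Musashi IP 3 lay above every IgG library and the other 3 lay below IgG 2. mt-Nd6 rose 1.86-fold (log2 0.90 ± 0.17, adjusted p = 0.00794, edgeR), most in lysate 3 (1.65). The kit keeps the strand, but whether the counting used it is not given in the sources used here, and without it reads of mt-Nd6 and of precursor RNA across the same positions cannot be told apart.

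mt-Nd2 (ENSMUSG00000064345, chrM:3914-4951) had 70.2, 47.0, 20.6, 35.3 and 40.8 CPM in Musashi IP of lysates 2, 3, 5, 6 and 7, against 60.9, 15.1, 18.9, 13.6 and 17.7 CPM in IgG. Its change was small in lysates 2 and 5 (log2 0.20 and 0.12) and over 1 in lysates 3, 6 and 7. mt-Nd2 rose 1.86-fold (log2 0.90 ± 0.23, adjusted p = 0.0237, edgeR), and its call was lost without lysate 3 (0.0688) or lysate 7 (0.0827).

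mt-Nd5 (ENSMUSG00000064367, chrM:11742-13565) had 248, 149, 73.4, 124 and 118 CPM in Musashi IP and 222, 68.3, 71.3, 52.2 and 63.7 CPM in IgG of the same lysates. Lysate 5 hardly differed between the antibodies (log2 0.04). mt-Nd5 rose 1.61-fold (log2 0.69 ± 0.19, adjusted p = 0.0286, edgeR), and its call was lost without lysate 3 (0.0974) or lysate 7 (0.102).

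mt-Nd1 was the tested mRNA that did not pass. It lies next to the ribosomal RNA genes at chrM:2751-3707 (ENSMUSG00000064341) and had 239, 118, 81.7, 147 and 119 CPM in Musashi IP of lysates 2, 3, 5, 6 and 7, against 255, 54.0, 76.3, 62.8 and 88.1 CPM in IgG. No Musashi IP library lay above IgG 2. The log2 fold change was 0.55 ± 0.20, higher in 4 of 5 lysates, with an unadjusted p of 0.0225 and an adjusted p of 0.0694 (edgeR). Without lysate 2 it was 0.77, with an adjusted p of 0.0152 (edgeR). Without lysate 3 it was 0.32 (0.236) and without lysate 6 it was 0.38 (0.117).

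**Figure D2:**
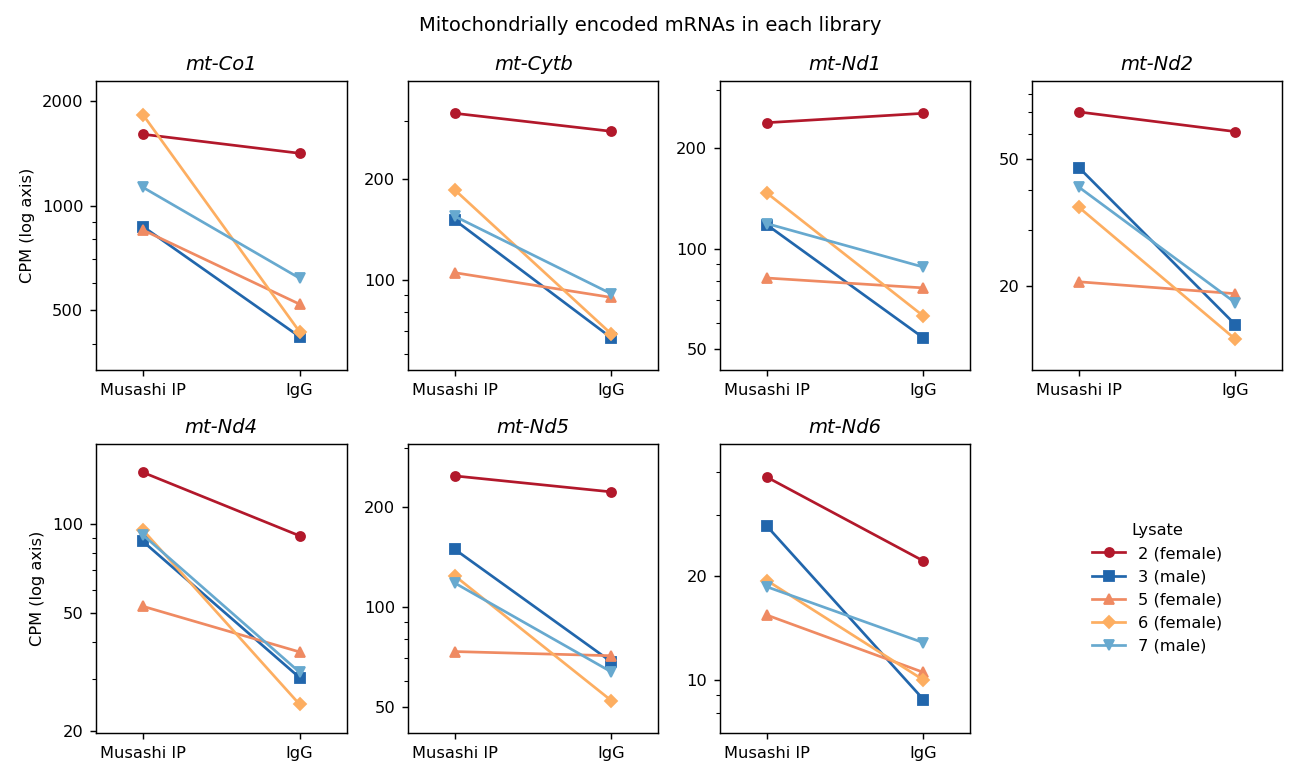
Level of the 7 tested mRNAs in CPM (log axis), with Musashi IP on the left and IgG on the right of each panel and a line for each lysate. Lines fall from Musashi IP to IgG in all lysates except for mt-Nd1 in lysate 2, and IgG 2 is the highest IgG library in each panel (1417 CPM for mt-Co1).

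None of the 4 other mitochondrial RNAs tested passed as higher. The ribosomal RNAs mt-Rnr1 (12S) and mt-Rnr2 (16S) had log2 fold changes of 0.67 ± 0.34 and -0.13 ± 0.24 and did not pass (adjusted p = 0.168 and 0.688, edgeR). mt-Rnr1 was higher in Musashi IP in 4 of 5 lysates and mt-Rnr2 in 2. Among transfer RNAs mt-Tc fell (log2 -1.19 ± 0.26, adjusted p = 0.0135, edgeR), and mt-Tn, at -0.81 ± 0.33, did not pass (0.0941). Their counts were low, with mt-Tc at 11 to 28 in Musashi IP and 9 to 89 in IgG. For mt-Tn they were 18 to 40 and 15 to 67, and IgG 2 held the most of both. The difference between mRNAs and these RNAs was not tested gene against gene. The library kit removes mitochondrial along with cytoplasmic ribosomal RNA, so that the ribosomal RNA counts are what was left.

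**Figure D3:**
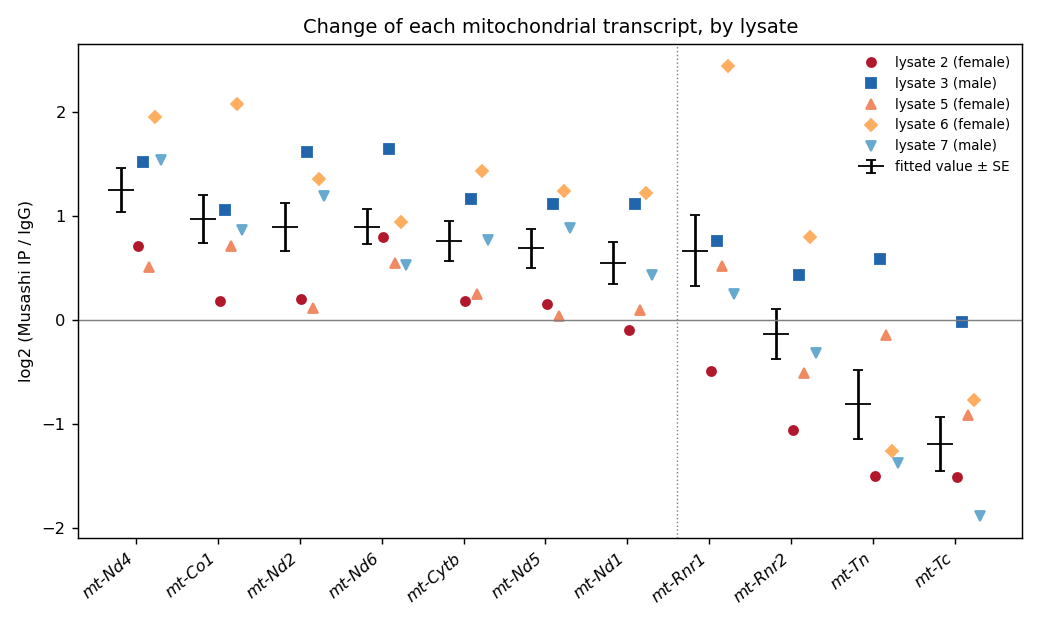
Log2 ratio of Musashi IP to IgG in each lysate (coloured points) and the fitted value with its SE (black bars) for the 7 mRNAs, left of the dotted line, and for the 4 other mitochondrial RNAs tested. Lysate 6 gives the highest ratio for 5 of the 7 mRNAs (2.08 for mt-Co1) and lysate 3 for mt-Nd2 and mt-Nd6, while lysates 2 and 5 lie lowest for 6 of the 7.

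Summed, the 10 mRNAs took 0.252, 0.153, 0.115, 0.191 and 0.166% of counts in Musashi IP of lysates 2, 3, 5, 6 and 7, against 0.225, 0.0737, 0.0886, 0.072 and 0.101% in IgG. The share was higher in Musashi IP in 5 of 5 lysates, by 0.0634 ± 0.0389 percentage points (SD, n = 5). mt-Co1 alone made up 66.7 ± 6.66% of these counts in Musashi IP and 63.7 ± 2.46% in IgG, so the sum largely follows that gene. The ribosomal RNAs took 0.600 ± 0.491% of counts in Musashi IP and 0.820 ± 0.989% in IgG and were higher in Musashi IP in 2 of 5 lysates.

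Ratios within a library do not depend on the scaling between libraries. Those to ribosomal RNA do depend on how much of it the kit left in each library. It took 0.154 to 1.28% of counts in Musashi IP and 0.137 to 2.54% in IgG. The part of its removal in the ratios below was not tested. Per ribosomal RNA count there were 0.197, 0.161, 0.743, 0.796 and 0.441 mRNA counts in Musashi IP of lysates 2, 3, 5, 6 and 7, against 0.0883, 0.102, 0.419, 0.526 and 0.206 in IgG. The ratio differed more between lysates than between antibodies, yet it was higher in Musashi IP in each lysate, by log2 0.868 ± 0.25 (SD, n = 5). Taken to mt-Rnr1 alone the mean was 0.221, higher in 4 lysates, and to mt-Rnr2 alone it was 1.05. The ribosomal RNAs differed between themselves as well. mt-Rnr1 per mt-Rnr2 count was 0.339 ± 0.229 in Musashi IP and 0.167 ± 0.0441 in IgG, higher in Musashi IP in 5 of 5 lysates (log2 0.83 ± 0.522).

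Among the mRNAs, mt-Nd4 and mt-Nd1 moved by the most and the least, and their ratio was chosen after their values were seen. It was 0.627, 0.742, 0.647, 0.652 and 0.776 in Musashi IP of lysates 2, 3, 5, 6 and 7, against 0.359, 0.561, 0.485, 0.392 and 0.359 in IgG, with no overlap. The log2 difference was 0.694 ± 0.297 (SD, n = 5). The ratio of mt-Nd6 to the other 9 mRNAs, which are read from the opposite strand, showed no common direction. It was higher in Musashi IP in lysates 2, 3 and 5 (log2 0.63, 0.547 and 0.0119) and lower in lysates 6 and 7 (-0.925 and -0.327), with a mean of -0.0126 ± 0.644.

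**Figure D4:**
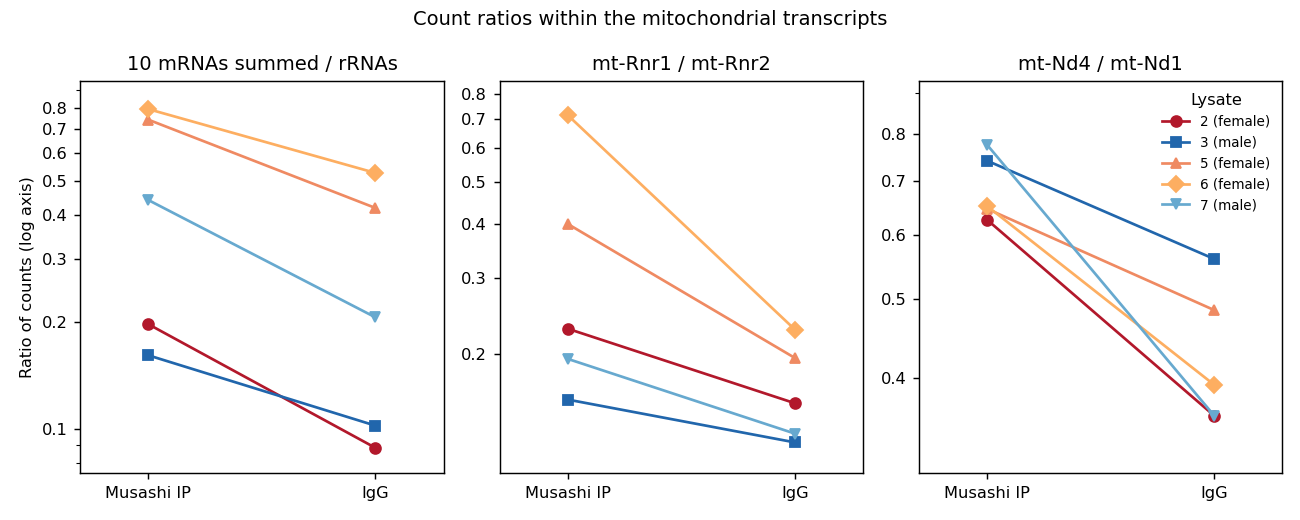
Ratios of counts within each library (log axes), with Musashi IP on the left and IgG on the right and a line for each lysate. All 5 lines fall from Musashi IP to IgG in each panel. mt-Nd4 and mt-Nd1 were paired after their values were seen, as the mRNAs that moved most and least, a choice that favours separation. Their lowest Musashi IP ratio (0.627) lies above the highest IgG ratio (0.561).

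Levels were also compared between the mRNAs, in CPM per kb of gene. mt-Co1 was first in all 10 libraries, with 815 ± 286 CPM per kb in Musashi IP and 441 ± 271 in IgG (SD, n = 5 each), 3.75 to 7.3 times mt-Cytb in the same library. mt-Cytb (160 ± 70.1 and 104 ± 79.1) and mt-Nd1 (147 ± 62.1 and 112 ± 87.2) came next. They changed places between the antibodies, with mt-Cytb above mt-Nd1 in 5 of 5 Musashi IP libraries and 1 of 5 IgG libraries, at a ratio of 0.861 to 1.11. mt-Nd5 followed with 78.1 ± 35.5 CPM per kb in Musashi IP and 52.4 ± 39.0 in IgG, below mt-Nd1 in every library. mt-Nd4 (69.4 ± 25.3 and 31.2 ± 19.9), mt-Nd6 (46.3 ± 18.2 and 24.8 ± 10.4) and mt-Nd2 (41.2 ± 17.5 and 24.3 ± 19.3) were lowest, and no neighbours among mt-Nd5, mt-Nd4, mt-Nd6 and mt-Nd2 kept 1 order in all libraries. If only the bases outside the near-identical copy were countable, mt-Nd4 would stand at 190 CPM per kb in Musashi IP and 85.6 in IgG, above mt-Nd5 with either antibody, and mt-Co1 at 1185 and 642.

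Nuclear genes for the same complexes were also counted. Of 75 nuclear-encoded subunits tested, 3 rose (4.0%, beside 18.5% of all genes tested) and 8 fell (10.7%, beside 8.4%), with a median log2 fold change of -0.06, near that of all genes. In complex I, 1 of 36 rose, the subunit gene Ndufa10 (log2 0.69 ± 0.15, adjusted p = 0.0113, edgeR), and 3 fell, Ndufb4 (-0.44), Ndufb5 (-0.39) and Ndufv2 (-0.39). Complex II (4 genes, 1 higher and 1 lower), which has no mitochondrially encoded subunit, held the largest nuclear change. Its membrane anchor Sdhd had 49.5 ± 25.6 CPM in Musashi IP and 15.8 ± 6.65 CPM in IgG, and rose (log2 1.58 ± 0.26, adjusted p = 0.00504, edgeR), while its iron-sulfur subunit Sdhb fell (-0.32). In complex III 1 of 9 rose, the Rieske iron-sulfur protein gene Uqcrfs1 (0.81 ± 0.19), and in complex IV 1 of 11 fell, Ndufa4 (-0.38). Of 15 ATP synthase genes 0 rose and 3 fell, Atp5j2 (-0.43), Atp5o (-0.41) and Atp5l (-0.36), all by edgeR at an adjusted p under 0.05.

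**Figure D5:**
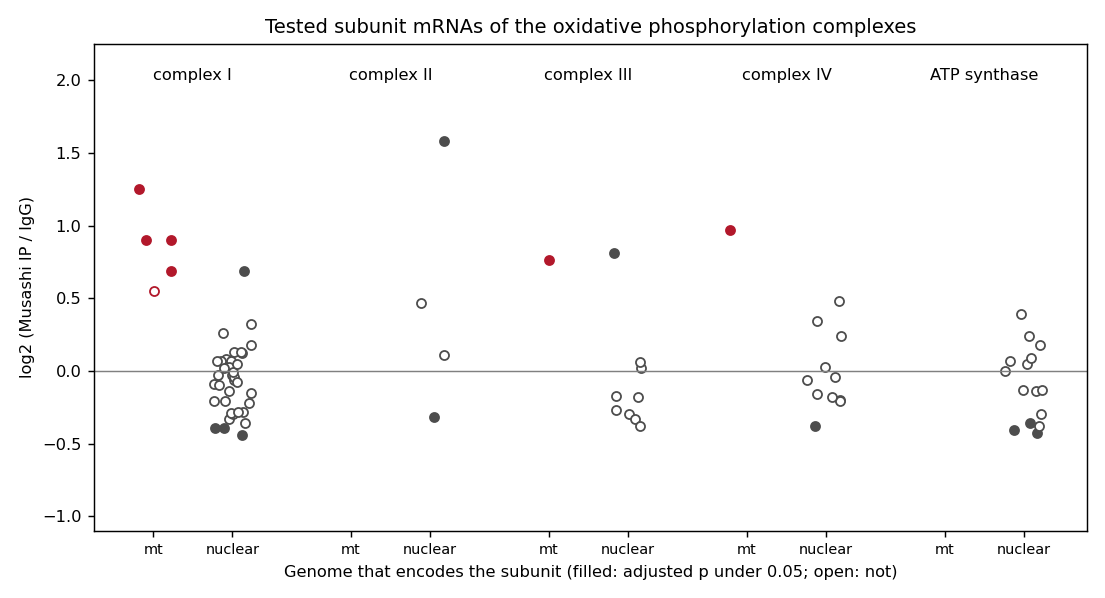
Log2 fold change of Musashi IP over IgG for every tested subunit of the 5 complexes, split into those encoded in mitochondrial DNA (mt, red) and in the nucleus (grey). Filled points had an adjusted p under 0.05 (edgeR), and the 7 mitochondrial points lie between 0.55 and 1.25 while the nuclear medians lie between -0.18 and 0.29.

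Genes that act on mitochondrial DNA and RNA were counted too, beside a background of 18.5% of all genes tested higher and 8.4% lower. Of 10 genes for maintenance and transcription of mitochondrial DNA, 2 rose and 1 fell (median 0.15). They were Tfam, which packages the DNA and starts its transcription (log2 0.82 ± 0.20, adjusted p = 0.0186, edgeR), the helicase gene Twnk (0.56) and the single-strand binding protein gene Ssbp1 (-0.34). Of 19 genes for mitochondrial RNA processing, stability and decay, 2 rose and 2 fell (10.5% each, median -0.11). The largest change was that of Grsf1, an RNA-binding protein of mitochondrial RNA granules, at 137 ± 65.8 CPM in Musashi IP and 46.2 ± 10.3 in IgG (log2 1.48 ± 0.23, adjusted p = 0.00432, edgeR). Ptcd1 rose (0.48), and Dhx30 and Pnpt1, a helicase and an exoribonuclease, fell (-0.36 each). Of 10 translation factors and the insertase, 2 rose, among them the insertase gene Oxa1l (0.46), and 0 fell (median 0.07).

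Sex was compared next, with 3 female and 2 male lysates. No difference of the antibody effect between females and males passed for any of the 7 mRNAs. The female minus male difference of log2 fold changes ran from -0.86 to 0.02, 0 of 7 passed (0% of 20550 genes passed), and 0 of 7 had an unadjusted p under 0.05 in edgeR, with 187 such genes in all. DESeq2 and limma-voom also called 0. The smallest unadjusted p was 0.0647, for mt-Nd2, whose SE of 0.40 on a difference of -0.86 does not bound the difference closely. Within females the log2 fold changes were 0.40 to 1.05, and mt-Nd4 passed (1.05 ± 0.27, adjusted p = 0.0414, edgeR), against a background of 11.6% of genes higher. DESeq2 called 2, mt-Co1 and mt-Nd4, with 2597 genes higher in all. Without lysate 3, 5 or 7, 0 of 7 passed in females, with 1418, 0 and 1428 genes higher in all, beside 2383 with every lysate (edgeR). Without lysate 2 all 7 passed in females, with 4903 of 20543 genes higher in all (edgeR).

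Within males the log2 fold changes were 0.78 to 1.54, and 0 of 7 passed in edgeR, with adjusted p between 0.299 and 0.393, as did 0% of all genes. All 7 had an unadjusted p under 0.05 in edgeR, as did 2548 of 20550 genes in all. DESeq2 called 455 genes in males, among them mt-Nd2 and mt-Nd4, and limma-voom called 0 of the 7. In edgeR all 7 passed in males with no filter on low counts, without lysate 2 and without lysate 6, with 1473, 1883 and 1747 genes higher in all. Lysates 2 and 6 are female and enter the male test through the shared estimate of the spread.

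Females were also set against males within each antibody. In Musashi IP the log2 ratio of female to male ran from -0.06 for mt-Nd2 to 0.50 for mt-Co1. There 0 of 7 passed (2.84% of 21238 genes passed), and 0 of 7 had an unadjusted p under 0.05 (3505 genes in all, edgeR). In IgG the ratio ran from 0.39 for mt-Nd6 to 0.92 for mt-Nd2, and 0 of 7 passed (4.5% of 20987 genes, edgeR). Again 0 had an unadjusted p under 0.05 (3496 genes in all, edgeR). DESeq2 and limma-voom called 0 in either antibody. With no filter on low counts 6 passed in IgG, where 1947 of 36302 genes passed in all. Without lysate 2 all 7 IgG ratios turned to between -0.12 and -0.00081.

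Some nuclear genes followed the mRNAs across libraries. By Pearson's r of log2 CPM with the summed mRNAs over the 10 libraries, the 5 most alike of 12684 genes were Scg3 (0.989), Laptm4a (0.977), Tmem59l (0.973), Trim32 (0.967) and Ly6e (0.967), beside a median of 0.21 over genes. Scg3, a granin of secretory granules, had 162 ± 41.0 CPM in Musashi IP and 112 ± 39.0 in IgG. The tested mRNAs themselves, which are part of the sum, had r of 0.886 to 0.99, mt-Rnr1 0.83 and mt-Rnr2 0.496. These correlations describe libraries that share lysates in pairs, with lysate 2 high for these mRNAs with both antibodies.

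The Musashi motif, (G/A)U1-3AGU, was looked for in the transcripts, where U is written T, on the transcript strand only. A form was A or G, then 1 to 3 T, then AGT, as in ATAGT or GTTAGT. mt-Co1 held 6, mt-Nd5 4 (of which 1 pair overlaps), mt-Nd6 4, mt-Nd4 3, mt-Nd1 2, mt-Co3 2 and mt-Cytb 1, and mt-Nd2, mt-Co2 and mt-Atp6 held none of these letters. That was 22 in 10554 bases, or 2.08 per kb, beside 1.35 per kb in 14193 nuclear protein-coding transcripts of tested genes. The 10 mRNAs had a GC content of 34.1 to 39.9%, and the nuclear transcripts here and below were not matched for GC content. The part of GC content in these motif counts was not tested. mt-Nd6 was densest, at 7.71 per kb. Of 42 nuclear protein-coding transcripts within 10% of its length, 38.1% held a motif and 0.0% held as many. For mt-Co1, 72.2% of 662 such transcripts held a motif and 2.57% as many, and for mt-Nd2 54.3% of 311 held one. Windows of 30 bases around a motif, with the motif in capitals, show it in mRNAs that rose and in mt-Nd1, which did not pass:
mt-Co1: gcctgagcgggaATAGTgggtactgcacta
mt-Cytb: ggagtctgcctaATAGTccaaatcattaca
mt-Nd4: ttctaaaattagGTAGTtacggaataattc
mt-Nd6: ttaggtttaattGTTAGTgggtttgttggt
mt-Nd1: agccttcctaacATTAGTagaacgcaaaat
Whether the number of motifs goes with the size of the change was not tested. A match of letters is a description and not a binding site.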

How the data were processed

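The authors deposited whole-number counts of reads for each Ensembl gene ID in 10 libraries, unnormalized. Per the submitters' processing notes, the tools included FastQC 0.11.8, Trimmomatic 0.39 and STAR 2.7.1a, with the genome GRCm39, and per the labels' protocols the kit was a stranded total RNA kit. Which program counted reads, with which strand setting and annotation, is not given in the sources used here. Symbols, positions and sequences were looked up by gene ID in GENCODE M21, which uses GRCm38 and not the build of the counts: 52083 of 55416 IDs matched (94.0%), and the others, 0.741 to 4.05% of a library's counts, stayed in totals and tests.

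All genes kept by filterByExpr were fitted in R 4.3.3 with edgeR 4.0.16 (TMM scaling, quasi-likelihood test, Benjamini-Hochberg adjustment over all genes). Alternatives were limma 3.58.1 (voom) and DESeq2 1.42.0. The antibody comparison had 4 residual degrees of freedom. The interaction fit, which also gave the tests within a sex, and the comparisons of sexes within an antibody had 3. The sex difference of the antibody effect used an interaction with the lysate block, and sexes were compared unpaired within an antibody. The SE is the log2 fold change divided by the square root of F. Log2 ratios of single lysates used a prior count of 2. The procedure was run on simulated data with independent libraries, a fixed spread and no lysate effect. That run does not bear on how it handles paired libraries.

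The protocol says each lysate was split, so the lysate number pairs the libraries, and libraries with the same number deviated together from their group means (correlations of 0.523, 0.679, 0.602, 0.186 and 0.778 for lysates 2, 3, 5, 6 and 7). No 2 libraries were identical. The protocol speaks of 6 occasions, 3 per sex, and the sixth pair was not analysed here. That lysates of a sex were separate sets of mice follows from these occasions. The p-values of antibody tests measure how the difference between the antibodies varies from lysate to lysate. Those of sexes compared within an antibody measure the spread between lysates. Counts have no molecular identifiers, so counts of 0 and their limits cover counting error only.

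Copies were nuclear transcripts that matched a mitochondrial mRNA over at least 100 bases at 95% identity or more (BLAST 2.17.0). Motif rates were set beside the longest transcripts of tested nuclear protein-coding genes. The mRNAs and the 14 gene lists were chosen with earlier results of these data known. From each list up to 4 genes past the threshold with a mean of at least 8 CPM are named, by size of log2 fold change. Sign-flip tests planned for the summed share and the ratios are not reported, because these are scores over chosen genes. Alternatives tried were other scalings, filters, tools, offsets for length and GC, no block, and leaving out each lysate.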

Additional observations from a re-analysis of the deposited data

Results flagged for a closer look

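The IgG library of lysate 2 was the highest of the 5 IgG libraries, by a gap over 0.71 of the group's range (Dixon's limit for 5 samples), for 10 measures that share this 1 library and so are not separate signs. Among the mRNAs these were mt-Co1 at 1417 CPM, with the next IgG library at 618, mt-Cytb at 279 (next 90.7), mt-Nd1 at 255 (88.1), mt-Nd2 at 60.9 (18.9), mt-Nd4 at 91.5 (37.0) and mt-Nd5 at 222 (71.3). The ribosomal RNAs were at 3540 CPM for mt-Rnr1 (next 722) and 23052 CPM for mt-Rnr2 (next 5785). The summed share of the 10 mRNAs was 0.225% of counts (next 0.101%) and that of the ribosomal RNAs 2.54% (next 0.723%). mt-Nd6, at 22.1 CPM in that library, was not past the limit. In all, 38 groups of values were examined, and chance puts about 1 in 20 past the limit. Musashi IP 2, from the same lysate, was the highest of its group for 6 of the 7 tested mRNAs without passing the limit.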

How the results depend on the processing

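All 7 tested mRNAs kept a positive log2 fold change of Musashi IP over IgG in every alternative, and 82 of 98 values kept their side of the threshold (13 fell below it and 3 passed it). The number called higher, 6, was 0 with no replicate block (smallest adjusted p 0.0562, edgeR) and 3 to 7 when 1 lysate was left out, with 3 without lysate 3 or 7, 5 without lysate 5 and 7 without lysate 2. It was 7 with no filter on low counts and 7 with length and GC offsets, which raised mt-Nd1 to 0.97, mt-Nd2 to 1.40 and mt-Nd6 to 1.62. Over all genes 3804 were higher in the main fit, 2407 with no block, 4213 with no filter and 3260 with the offsets. Without lysates 3, 7, 5 and 2 they were 3028, 2288, 1676 and 4651. Library totals, which shift the median of all genes by -0.18, left 6 of the mRNAs called, while over all genes 3153 were then higher and 4068 lower. Taken to mt-Rnr1 alone, the log2 ratio of mRNA to ribosomal RNA counts was 0.221. The female minus male difference for mt-Co1 turned to -0.084 with library totals, -0.034 with no filter and -0.018 with the 2 CPM filter, and ran from -0.52 to 0.45 when 1 lysate was left out; for mt-Nd6 it ran from -0.96 to 0.26. In Musashi IP the female to male ratio turned negative with library totals for mt-Nd4 (-0.044), mt-Nd5 (-0.034) and mt-Nd6 (-0.11), and with limma-voom for mt-Nd5 (-0.034) and mt-Nd6 (-0.035). With 1 lysate left out it ran from -0.14 to 0.71 (mt-Cytb), -0.11 to 0.70 (mt-Nd1), -0.71 to 0.26 (mt-Nd2), -0.34 to 0.44 (mt-Nd4), -0.50 to 0.47 (mt-Nd5) and -0.47 to 0.41 (mt-Nd6). In IgG it ran from -0.12 to 0.91 (mt-Co1), -0.00081 to 1.22 (mt-Cytb), -0.029 to 1.28 (mt-Nd1), -0.012 to 1.28 (mt-Nd2), -0.0074 to 1.05 (mt-Nd4), -0.093 to 1.15 (mt-Nd5) and -0.074 to 0.70 (mt-Nd6), and 6 of these mRNAs passed with no filter. The causes were not tested. With 2 male lysates, leaving out 1 leaves a lone male library that is assumed to vary like the others. Counts of mt-Co2, mt-Co3 and mt-Atp6 were too low for any test.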
